A study of Mus musculus with 9 samples.

Results

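The genes described here are those of calcitonin gene-related peptide (CGRP) and its receptor in the mouse trigeminal ganglion (TG). They were chosen by name and number 7 of the 21809 genes in the deposited mRNA table. Calca and Calcb encode the peptides, Calcrl and Ramp1, Ramp2 and Ramp3 the receptor subunits, and Crcp the CGRP receptor component protein. Together they have 32 of the 102122 transcripts in that table, of which 101539 were found in the GENCODE annotation used for gene names.

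The TG was taken from wild-type (WT) male C57BL/6 mice, 8 weeks old, after injection into the temporomandibular joint (TMJ) on one side. The saline group (replicates 1 to 3) received 10 µl of saline and was labelled day 3. The CFA3D (replicates 1 to 3) and CFA6D (replicates 4 to 6) groups received 10 µl of complete Freund's adjuvant (CFA) at 5 mg/ml, which inflames the joint, and were taken on day 3 and day 6. Each library pooled TG tissue of 3 mice, so n = 3 pools per group. CFA6D was compared with saline labelled day 3, so treatment and day cannot be told apart there. The injection was made under isoflurane, and no transgene or deletion was carried by any group.

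CGRP is a neuropeptide of small and medium sensory neurons, released in the TG and at its nerve endings, where it widens blood vessels and takes part in pain and migraine. Calca can be spliced to a calcitonin or to a CGRP messenger, the first used mainly by thyroid C cells and the second by neurons, while Calcb gives a closely related CGRP. The calcitonin receptor-like receptor (Calcrl) binds CGRP when paired with Ramp1 and adrenomedullin when paired with Ramp2 or Ramp3. It signals mainly through Gs proteins, cyclic AMP and protein kinase A.

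The choice between the Calca products lies in the exon that follows the shared coding exons, so the coding parts of both exons are shown, each with its stop codon at the end. They come from the GRCm38.p6 genome at the positions of the GENCODE release 21 annotation for mouse. The calcitonin part lies at chr7:114633602-114633785 on the minus strand, and its capitals mark the stop codon:
Calca calcitonin exon: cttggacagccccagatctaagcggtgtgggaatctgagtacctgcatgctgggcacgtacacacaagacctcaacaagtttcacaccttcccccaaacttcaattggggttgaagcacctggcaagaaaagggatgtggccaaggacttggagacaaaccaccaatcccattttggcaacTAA
The CGRP part of Calca lies at chr7:114632440-114632599 on the minus strand, and that of Calcb at chr7:114721975-114722137 on the plus strand, with capitals for the bases that differ between them in a global alignment:
Calca CGRP exon: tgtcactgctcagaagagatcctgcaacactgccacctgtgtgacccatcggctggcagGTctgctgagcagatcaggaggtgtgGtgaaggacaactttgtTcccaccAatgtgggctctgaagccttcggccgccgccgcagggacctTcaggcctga
Calcb CGRP exon: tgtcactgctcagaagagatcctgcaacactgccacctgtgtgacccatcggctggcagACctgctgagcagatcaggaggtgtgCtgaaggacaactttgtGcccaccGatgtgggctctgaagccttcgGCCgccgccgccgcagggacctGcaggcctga
The CGRP exons of Calca and Calcb were identical in 154 of 163 aligned positions (94.5%). The CGRP and calcitonin exons of Calca matched in 80 of 189 (42.3%). How the authors' counting assigned reads that match both CGRP exons is not given in the sources used here, so part of the reads of Calca and Calcb may have been exchanged. The genes lie 82.3 kb apart on opposite strands.

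Levels are in FPKM (fragments per kilobase and per M mapped fragments), as deposited by the authors for each transcript. A gene's level is the sum of FPKM over its transcripts in the mRNA table (gene sum). A single read pair counted for about 0.0237 to 0.0333 FPKM in a transcript of 1 kb, as estimated from the FPKM themselves. That gives a scale of about 30.004 to 42.198 M read pairs per library, which is inferred and not the number of reads sequenced. The TG identity was visible in all libraries, with 12 sensory neuron genes (such as Rbfox3 and Prph) summing to 2485 to 3771 FPKM and 6 Schwann cell genes to 2326 to 3318. Some libraries stood apart. CFA6D replicate 6 was farthest from the rest on the first principal component (27.8% of the variance). On the second (17.9%), saline replicate 3 and saline replicate 2 lay at opposite ends, with scores of -28.8 and 27.21, and the others between -13.09 and 8.89. Saline replicate 3 also held 10685 FPKM of 7 pituitary hormone genes, against 8.89 to 1117 in the other 8 libraries. Saline replicate 2 held the highest sums of skeletal muscle genes, 152 FPKM against at most 67.6 in the others, and of erythroid genes, 5789 against 1667 to 3862. Several differences of the CGRP genes are also given without saline replicate 3 and CFA6D replicate 6 together. Below, the 2 libraries that stood apart are this pair, although saline replicate 2, which stayed in, stood apart too. Some differences are given without saline replicate 2 alone, since leaving out all 3 would leave 1 saline library.

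Calca (ENSMUSG00000030669, chr7:114631478-114636357, minus strand), the gene of calcitonin and alpha-CGRP, was among the most abundant genes of the TG. Its gene sum averaged 312 FPKM and ranked 61 of 16096 gene sums tested. It rested on at least 8200 read pairs in every library. The saline libraries held 329, 291 and 222 FPKM, the CFA3D libraries 338, 346 and 383, and the CFA6D libraries 316, 328 and 254. All CFA3D values lay above all saline values, saline replicate 3 was lowest of all, and the CFA6D values overlapped the saline values.

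Calcb, which encodes beta-CGRP at chr7:114718643-114723365, stood at 23.8, 20.6 and 19.9 FPKM in saline, at 24.5, 26.1 and 31.4 on CFA3D and at 26.9, 23.6 and 21.4 on CFA6D. Here too the CFA3D libraries lay above saline and the CFA6D libraries overlapped them. Calca was 12.9 ± 1.11 times as high as Calcb (SD, n = 9 libraries, range 11.2 to 14.1). The difference between CFA and saline in log2(Calcb/Calca) was 0.02 (means -3.67 and -3.70), well under the SD of 0.19 between saline libraries (two-sided exact permutation p = 0.857, 6 against 3 libraries, smallest p possible 0.0238).

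**Figure D1:**
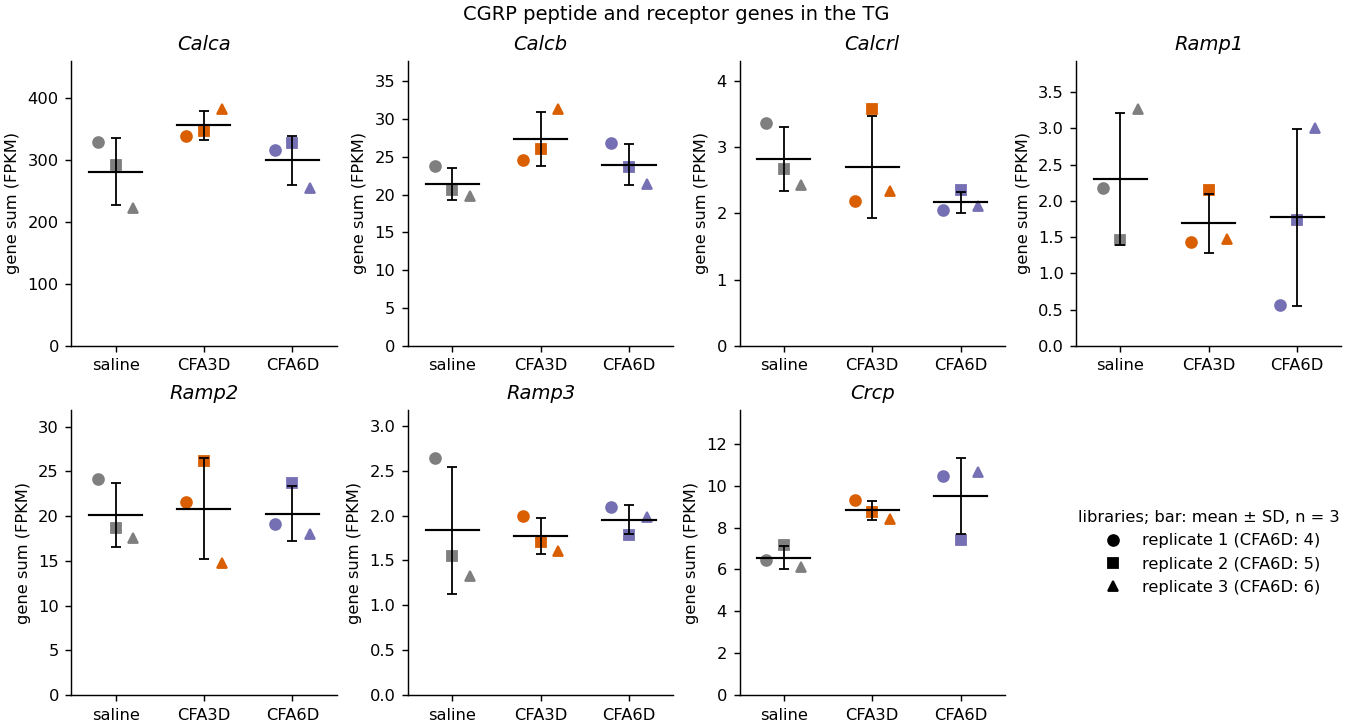
Gene sums in FPKM of the 7 genes in each library (points, shapes mark the replicates), with the mean and SD of 3 libraries per group. All CFA3D points lie above all saline points for Calca, Calcb and Crcp, and the groups overlap in the 4 receptor genes except that all CFA6D values of Calcrl, 2.05 to 2.34 FPKM, lie below saline, 2.43 to 3.35.

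In limma on log2(FPKM + 0.1), the CFA3D gene sum of Calca differed from saline by 0.36 ± 0.16 on the log2 scale (SE; 95% interval -0.0002 to 0.71, adjusted p = 0.997), a ratio of 1.28 that just missed an unadjusted p of 0.05. Calcb was higher by 0.34 ± 0.12 (0.07 to 0.62, adjusted p = 0.997), a ratio of 1.27, which passed an unadjusted p of 0.05 but not after adjustment. On CFA6D the differences from saline were 0.10 ± 0.16 for Calca (adjusted p = 0.847) and 0.16 ± 0.12 for Calcb (adjusted p = 0.682). Between CFA6D and CFA3D they were -0.25 ± 0.16 and -0.19 ± 0.12 (adjusted p = 0.727 and 0.731), with every CFA6D value of Calca below every CFA3D value, as in 10.1% of all gene sums. Without saline replicate 3 the Calca difference on CFA3D was 0.20, and without CFA3D replicate 3 the Calcb difference was 0.24. Without both libraries that stood apart, Calcb on CFA3D was at 0.29 and no longer passed unadjusted, and the CFA6D differences were 0.06 for Calca and 0.18 for Calcb. Without saline replicate 2, Calcb on CFA3D was at 0.32 and did not pass unadjusted either.

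Across all genes, calls were made where the unadjusted limma p was under 0.05 and the log2 change reached 1 in size. By limma, none of the 7 gene sums was called in any of the 4 comparisons, where 0.342% of all gene sums were called on CFA3D, 0.584% on CFA6D, 0.77% for CFA6D against CFA3D and 0.292% for both CFA days against saline. At an unadjusted p under 0.05 alone, 2 of 7 passed on CFA3D (Calcb and Crcp), 1 on CFA6D (Crcp), 0 between the CFA days and 2 for both days together (Calcb and Crcp), all higher with CFA. Among all gene sums 3.65% passed upwards on CFA3D, 8.22% on CFA6D and 6.78% for both days, and 7.39% passed between the CFA days. Groups that did not overlap, with CFA higher, were seen in 3 of 7 on CFA3D (Calca, Calcb and Crcp) and in 1 on CFA6D (Crcp), against 7.01% and 10.7% of all gene sums. With Benjamini-Hochberg adjustment none of the 7 and none (0%) of the 16096 gene sums had a p under 0.05 in any comparison. The median log2 difference of the 7 genes was 0.03 on CFA3D and 0.10 on CFA6D, beside 0.05 and 0.03 over all gene sums.

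**Figure D2:**
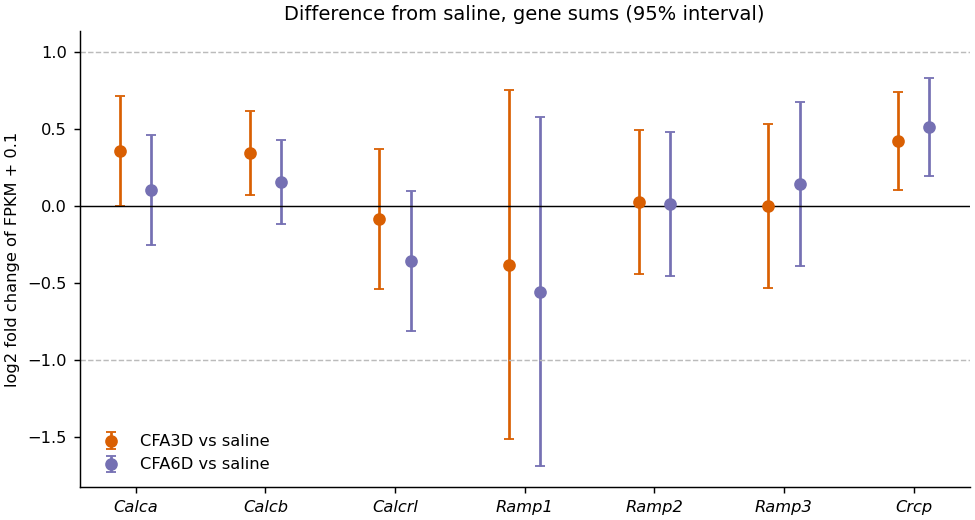
Difference from saline in log2(FPKM + 0.1) for each gene on CFA3D and CFA6D, with 95% intervals from limma (3 libraries per group); dashed lines mark the log2 change of 1 needed for a call. The intervals leave out 0 for Calcb on CFA3D and for Crcp on both days, and those of Ramp1 are the widest, from -1.51 to 0.75 and from -1.69 to 0.58.

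The Calca messenger in the TG was almost entirely of the CGRP form. Its 7 transcripts at chr7:114631478-114636357 fall into CGRP forms (Calca-201 and the 3′-incomplete Calca-206), calcitonin forms (Calca-202 and Calca-207), forms that end in the intron after the shared coding exon (Calca-204 and Calca-205) and ENSMUST00000205560, a fragment over the CGRP exons with no coding sequence annotated. The CGRP forms summed to 308, 279 and 212 FPKM in saline, 319, 329 and 364 on CFA3D and 296, 312 and 242 on CFA6D. The calcitonin forms summed to 1.68, 0.469 and 0.375 FPKM in saline, 0.587, 0.619 and 1.10 on CFA3D and 0.574, 1.75 and 0.707 on CFA6D. The values of the calcitonin forms overlapped between all groups, and their highest libraries were saline replicate 1 and CFA6D replicate 5.

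As a share of CGRP plus calcitonin FPKM, CGRP made up 99.7% ± 0.214 in saline, 99.8% ± 0.0663 on CFA3D and 99.7% ± 0.189 on CFA6D (SD, n = 3 each), and between 99.4% and 99.8% in every library. The calcitonin forms rested on only 11.7 to 53.0 read pairs per library, against 7991 to 12754 for the CGRP forms. The share differed from saline by 0.072 percentage points on CFA3D (exact permutation p = 1.0) and by -0.052 on CFA6D (exact permutation p = 0.5), with 0.1 the smallest p that 3 against 3 libraries allow. For both CFA days together the difference was 0.010 points (p = 0.857 by the two-sided exact permutation test). The calcitonin share itself ranged from 0.168% to 0.558% between libraries. Without the 2 libraries that stood apart the CGRP share differed from saline by 0.132 points on CFA3D and -0.020 on CFA6D, and without saline replicate 2 by 0.136 and 0.012.

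Among the single CGRP transcripts, the full-length Calca-201 carried 196 to 341 FPKM. On CFA3D it was 0.36 ± 0.15 above saline on the log2 scale (adjusted p = 0.989), passing unadjusted without reaching the fold of a call. All its CFA3D values, 294 to 341 FPKM, lay above saline, 196 to 284, as in 5.79% of all transcripts. Without saline replicate 3 the difference was 0.20. On CFA6D it was 0.09 ± 0.15 (adjusted p = 0.927).

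**Figure D3:**
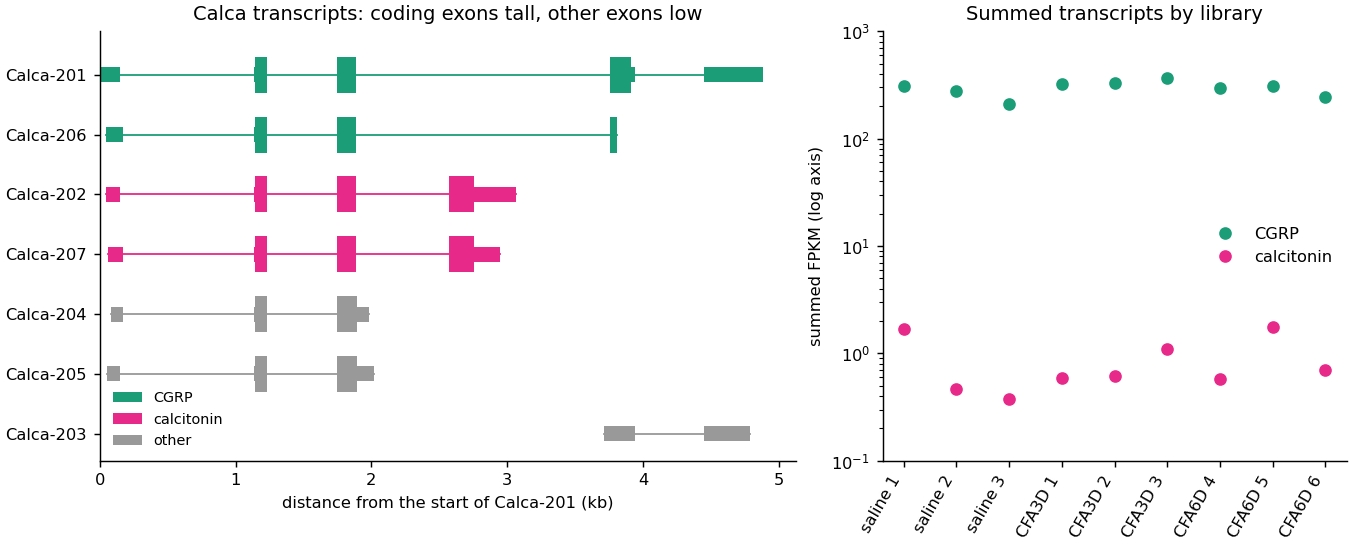
Left, exons of the 7 Calca transcripts by distance in kb from the start of Calca-201, with coding exons drawn tall and the fragment without coding sequence in the bottom row; right, summed FPKM (log axis) of the CGRP and calcitonin forms in each library. The CGRP forms sit between 212 and 364 FPKM and the calcitonin forms between 0.375 and 1.75 FPKM in all 9 libraries.

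Of the 32 transcripts, 27 reached the mean of 0.1 FPKM needed for a test, and 5 did not (Calcrl-202, Crcp-205, Crcp-206, ENSMUST00000182816 of Calcb and ENSMUST00000188475 of Ramp1). Calcb-202 and Crcp-202 were called, both upregulated, on CFA3D, on CFA6D and for both days together. Among all 66562 transcripts tested, 2.19% were called on CFA3D (1.2% upregulated), 2.57% on CFA6D (1.47% upregulated) and 1.86% for both days (1.08% upregulated). At an unadjusted p under 0.05 alone, 3 of the 27 passed on CFA3D, with Calca-201 as the third, against 2.88% of all transcripts upwards. The 2 called transcripts were those that passed on CFA6D and for both days, against 4.14% and 3.73%. None of the 27 was called by limma between CFA6D and CFA3D, where 2.23% of all were, and 0 had an unadjusted p under 0.05 there, against 5.42%. No adjusted p of the 27 was under 0.05, a level reached by 0.0255%, 0.0195%, 0.015% and 0.024% of all transcripts on CFA3D, on CFA6D, between the days and for both days, and the smallest among the 27 was 0.366.

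Calcb-202 (ENSMUST00000182044) is a short transcript of 386 bp with an incomplete end. It begins at chr7:114719511, in the intron before the second exon of Calcb-201, and reads through that exon's splice acceptor into the exon. The 30 intron bases before that exon, chr7:114719705-114719734 on the plus strand, are shown with the acceptor's last bases in capitals, since Calcb-202 retains them and Calcb-201 (ENSMUST00000032902) does not:
Calcb intron end: agcaattggaccattcttctcttcttacAG
In all, 224 bases of Calcb-202 lie outside the exons of Calcb-201. Calcb-202 stood at 2.11, 1.40 and 1.51 FPKM in saline, 2.86, 3.47 and 4.18 on CFA3D and 4.05, 2.91 and 3.80 on CFA6D, from 16.2 to 61.6 read pairs per library. All 6 CFA libraries lay above all 3 saline libraries, which 5.79% of all transcripts did on CFA3D, 6.7% on CFA6D and 1.89% for both days together.

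The log2 difference of Calcb-202 from saline was 1.03 ± 0.22 on CFA3D and 1.06 ± 0.22 on CFA6D (adjusted p = 0.744 and 0.382). The call sat close to the fold minimum. On CFA3D the log2 difference was 0.92 without saline replicate 2, 0.97 without saline replicate 3 and 0.90 without CFA3D replicate 3, and on CFA6D 0.95 without saline replicate 2 and 0.97 without CFA6D replicate 4. Without saline replicate 3 and CFA6D replicate 6 together it was 0.97 and 0.96, still passing an unadjusted p of 0.05. Calcb-202 made up 7.75% ± 1.05 of the Calcb gene sum in saline, 12.8% ± 0.952 on CFA3D and 15.03% ± 2.70 on CFA6D (SD, n = 3). The full-length Calcb-201, with 17.6 to 27.1 FPKM, differed from saline by 0.27 ± 0.13 on CFA3D and 0.04 ± 0.13 on CFA6D (adjusted p = 0.989 and 0.971).

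Crcp encodes a small intracellular protein that was named for its part in CGRP receptor signalling and is also a subunit of RNA polymerase III. The gene, at chr5:130029290-130060789 on the plus strand, had a gene sum of 6.43, 7.16 and 6.11 FPKM in saline, 9.30, 8.76 and 8.40 on CFA3D and 10.5, 7.41 and 10.7 on CFA6D, with every CFA library above every saline library. The groups were separated in this way, upwards, for both CFA days in 3.34% of all gene sums. Crcp was higher by 0.42 ± 0.14 on CFA3D and 0.51 ± 0.14 on CFA6D (adjusted p = 0.997 and 0.224) on the log2 scale, passing unadjusted on both days. Without saline replicate 3 and CFA6D replicate 6 it was at 0.37 on both days, passing unadjusted on CFA3D but not on CFA6D.

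The sum was carried by Crcp-202 (ENSMUST00000156729), a noncoding transcript of 669 bp whose first exon runs past the splice donor that Crcp-201 (ENSMUST00000026608), the main coding form, uses. The 87 bases that Crcp-202 adds, chr5:130029408-130029494 on the plus strand, are shown with the passed-over donor bases in capitals:
Crcp-202 extension: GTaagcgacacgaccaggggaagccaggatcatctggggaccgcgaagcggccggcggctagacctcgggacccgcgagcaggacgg
Crcp-202 stood at 1.49, 2.61 and 1.85 FPKM in saline, 5.05, 5.05 and 4.12 on CFA3D and 5.58, 3.58 and 7.24 on CFA6D, from 30.6 to 184 read pairs. All CFA libraries exceeded all saline libraries, as in 1.89% of all transcripts. Its log2 difference from saline was 1.24 ± 0.28 on CFA3D and 1.39 ± 0.28 on CFA6D (adjusted p = 0.766 and 0.376). Without the 2 libraries that stood apart it was 1.21 and 1.14, still called. Leaving out any 1 library kept it between 1.07 and 1.45 on CFA3D and between 1.17 and 1.66 on CFA6D.

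Crcp-202 made up 30.01% ± 6.65 of the Crcp gene sum in saline, 53.7% ± 4.35 on CFA3D and 56.5% ± 10.1 on CFA6D (SD, n = 3). Crcp-201 stood at 4.02, 4.04 and 4.21 FPKM in saline, 3.25, 2.93 and 3.68 on CFA3D and 4.29, 3.43 and 2.63 on CFA6D. It differed by -0.31 ± 0.19 on CFA3D (adjusted p = 0.989), with no overlap of the groups (3.69% of all transcripts lay apart in this direction), and by -0.27 ± 0.19 on CFA6D (adjusted p = 0.829), with overlap. Because Crcp-201 is 1492 bp long and Crcp-202 is 669 bp, the same reads give more FPKM when assigned to the shorter form. With FPKM weighted by transcript length, the Crcp difference was 0.15 on CFA3D and 0.23 on CFA6D, and neither passed unadjusted. In the same weighting Calca was 0.36 and Calcb 0.30 above saline on CFA3D, both passing unadjusted.

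**Figure D4:**
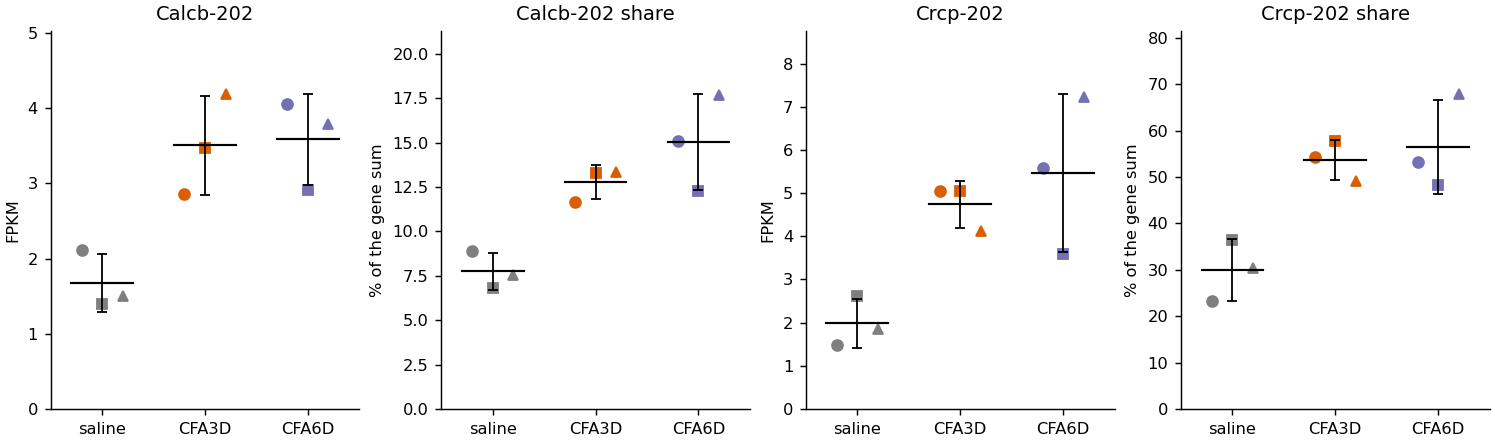
FPKM of Calcb-202 and Crcp-202 in each library and their share in percent of the gene sum, with the mean and SD of 3 libraries per group. In all 4 panels every CFA point lies above every saline point, for example 11.7% to 17.7% against 6.79% to 8.88% for the Calcb-202 share.

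The receptor genes were far lower than the peptide genes, except Ramp2. Calcrl, the receptor itself (chr2:84330626-84425411, minus strand), stood at 3.35, 2.67 and 2.43 FPKM in saline, 2.19, 3.58 and 2.33 on CFA3D and 2.05, 2.34 and 2.10 on CFA6D. The CFA6D libraries all lay below the saline libraries, as did 5.5% of all gene sums, and the CFA3D libraries overlapped them. The log2 difference was -0.08 ± 0.20 on CFA3D (adjusted p = 0.997) and -0.35 ± 0.20 on CFA6D (95% interval -0.81 to 0.10, adjusted p = 0.563). Without the 2 libraries that stood apart the CFA6D difference was -0.43, and it did not pass. The main transcript, Calcrl-201, overlapped between CFA6D, at 1.10 to 1.68 FPKM, and saline, at 1.51 to 2.04 (-0.28 ± 0.25, adjusted p = 0.863). Calcrl-202 was listed at 0 in 8 libraries and at 0.509 FPKM in saline replicate 2.

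Ramp1, the partner that makes Calcrl a CGRP receptor (chr1:91179822-91225196, plus strand), varied most among the 7 genes, with a coefficient of variation of 43.7% over the 9 libraries against 14.7% to 21.4% for the others. It stood at 2.18, 1.47 and 3.27 FPKM in saline, 1.44, 2.16 and 1.48 on CFA3D and 0.569, 1.73 and 3.01 on CFA6D. The highest values were in saline replicate 3 and CFA6D replicate 6, the 2 libraries that stood apart, and the lowest in CFA6D replicate 4. The log2 difference was -0.38 ± 0.50 on CFA3D and -0.55 ± 0.50 on CFA6D (adjusted p = 0.997 and 0.724). Without CFA6D replicate 6 alone the CFA6D difference was -1.05 and met the rule for a call, without CFA6D replicate 4 it was 0.06, and without both libraries that stood apart it was -0.77 and did not pass.

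Ramp2, which pairs with Calcrl to bind adrenomedullin (chr11:101246028-101259546, plus strand), was the most abundant of the 3 partners, at 24.2, 18.7 and 17.6 FPKM in saline, 21.6, 26.1 and 14.8 on CFA3D and 19.1, 23.8 and 17.96 on CFA6D. Its log2 difference was 0.03 ± 0.21 (95% interval -0.44 to 0.49) on CFA3D and 0.01 ± 0.21 (-0.45 to 0.48) on CFA6D, and its sign turned under quantile normalization (-0.05 and -0.06). The Ramp2 transcript ENSMUST00000128260 runs into the neighbouring gene Vps25, and without it the differences were 0.05 and 0.02. The most abundant of the 8 Ramp2 transcripts, Ramp2-204, held 6.68 to 10.8 FPKM and differed by -0.04 ± 0.19 and -0.01 ± 0.19. The short Ramp2 transcript ENSMUST00000151830 was higher in every CFA6D library, at 0.736 to 0.856 FPKM, than in saline, at 0.213 to 0.713. On CFA6D 6.7% of all transcripts lay apart in this direction. The difference was 0.73 ± 0.39 and did not pass (adjusted p = 0.774). This transcript rested on only 3.3 to 17.6 read pairs per library. Ramp3, the other adrenomedullin partner (chr11:6658521-6677475, plus strand), stood at 2.65, 1.55 and 1.32 FPKM in saline, 1.99, 1.71 and 1.61 on CFA3D and 2.10, 1.78 and 1.99 on CFA6D, with overlapping groups. Its log2 difference was 0.00 ± 0.24 on CFA3D and 0.14 ± 0.24 on CFA6D (adjusted p = 0.999 and 0.857), and its sign turned on CFA3D under median centring (-0.06). The start of Ramp3 overlaps the pseudogene Gm11978 on the other strand.

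By level the order was Calca, Calcb, Ramp2, Crcp, Calcrl, Ramp1 and Ramp3. Calca was above Calcb, Ramp2 above Crcp and Crcp above Calcrl in all 9 libraries with no overlap of their ranges. Calcb exceeded Ramp2 in 6 of 9 libraries, and Calcrl, Ramp1 and Ramp3 overlapped in range, so these neighbours were not separated. Of the summed Ramp FPKM, Ramp2 made up 84.2% ± 3.55, Ramp1 8.04% ± 3.73 and Ramp3 7.75% ± 1.47 (SD, n = 9). The Ramp1 share was 9.69% ± 4.43 in saline and 7.21% ± 3.46 in the 6 CFA libraries, a difference of -2.48 percentage points (p = 0.31 by the two-sided exact permutation test), which was 0.067 points without saline replicate 3. With the highest transcript of each gene in place of its sum, the Ramp1 share was 14.3% ± 6.09 (SD, n = 9). In that setting it differed by -3.98 points between CFA and saline. The Ramp2 sum adds 8 transcripts, some annotated as nonsense-mediated decay or retained-intron forms, so these shares depend on the summing. Together the Ramp gene sums were 9.62 ± 1.54 times as high as Calcrl per length, a ratio that depends on the summing too.

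Ramp2 and Calcrl are known from blood vessel cells. The sum of 10 endothelial genes, such as Pecam1 and Cdh5, was 50.7 to 58.8 FPKM in saline, 44.2 to 83.1 on CFA3D and 46.0 to 61.1 on CFA6D, and none of the 10 had a p under 0.05 on either day. CFA3D replicate 2 held the highest endothelial sum, the highest Ramp2 and the highest Calcrl, and CFA3D replicate 3 the lowest endothelial sum and the lowest Ramp2. The first of these was not particular to endothelial genes. CFA3D replicate 2 also held the highest sums of fibroblast (601 FPKM), macrophage (106), satellite glia (395) and lymphatic endothelial genes (14.1). Schwann cell genes were highest in CFA6D replicate 4, and smooth muscle and pericyte genes in CFA6D replicate 5. The part of vessel cell content in the Ramp2 and Calcrl values was not tested. In bulk tissue, fewer cells of a type and less RNA per cell cannot be told apart.

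**Figure D5:**
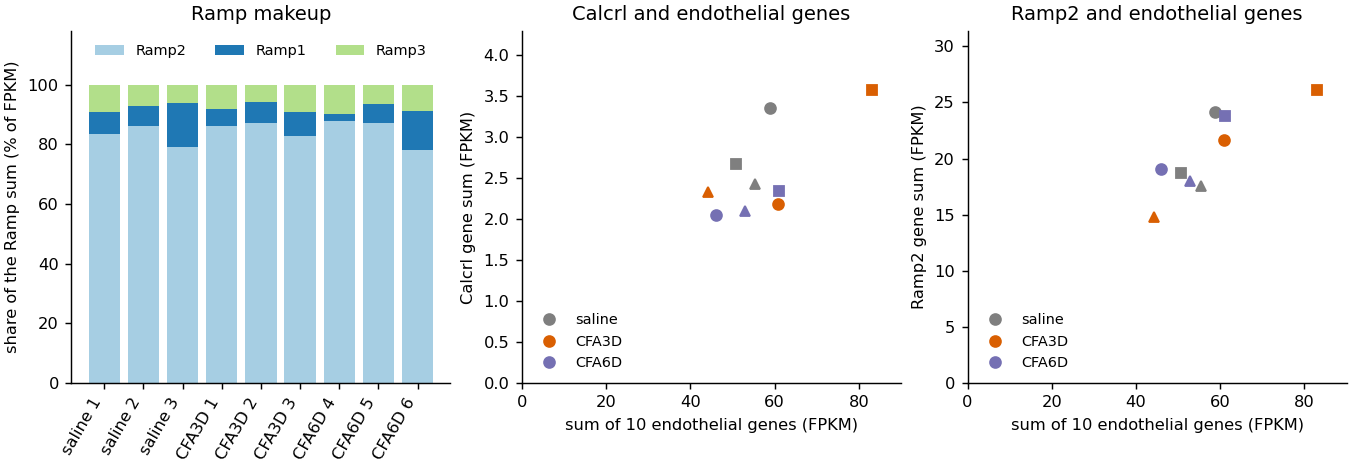
Left, share of Ramp1, Ramp2 and Ramp3 in the summed Ramp FPKM of each library; middle and right, gene sums of Calcrl and Ramp2 against the sum of 10 endothelial genes (FPKM, 1 point per library). Ramp2 makes up 78.2% to 87.7% in every library, and CFA3D replicate 2 lies at the top right of both scatter plots. That library also held the highest fibroblast, macrophage, satellite glia and lymphatic endothelial sums.

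Other genes of the CGRP pathway were taken from lists of its steps. Of 13 genes of peptide processing and amidation, all tested, 1 was called on CFA6D, beside the 0.584% of all gene sums called there, Vgf, a secreted granule protein that is cut into peptides. Vgf stood at 8.64, 11.2 and 12.3 FPKM in saline, 16.2, 27.0 and 21.4 on CFA3D and 29.2, 20.3 and 25.3 on CFA6D. All CFA libraries were above saline, as in 3.34% of all gene sums. The log2 difference was 0.98 ± 0.21 on CFA3D and 1.21 ± 0.21 on CFA6D (adjusted p = 0.997 and 0.0992). Without saline replicate 3 and CFA6D replicate 6 it was 1.09 and 1.30. The other 12, among them the convertases Pcsk1 and Pcsk2 and the amidating enzyme Pam, did not pass a p of 0.05 on either day. The list's median difference was -0.02 on CFA3D and 0.11 on CFA6D. Its sum was highest, at 817 FPKM against 526 to 705, in saline replicate 3, the library with most pituitary RNA.

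Of 9 genes of vesicle release, 2 passed a p of 0.05 on CFA3D and 4 on CFA6D, all higher and none by the log2 change of 1 needed for a call, beside the 3.65% and 8.22% of all gene sums that passed upwards. The calcium sensor Syt1 stood at 24.8, 27.2 and 25.5 FPKM in saline, 31.4, 28.2 and 28.7 on CFA3D and 36.9, 32.97 and 31.8 on CFA6D, a log2 difference of 0.19 ± 0.08 (adjusted p = 0.997) and 0.39 ± 0.08 (adjusted p = 0.134). Without the 2 libraries that stood apart it was 0.18 on CFA3D and no longer passed. The vesicle SNARE protein Vamp2 differed by 0.19 ± 0.08 (adjusted p = 0.997) and 0.47 ± 0.08 (adjusted p = 0.0861). For both genes all CFA libraries were above saline, as in 3.34% of all gene sums. Neither passed on CFA3D under quantile normalization, at 0.098 for Syt1 and 0.103 for Vamp2, nor under median centring, at 0.12 and 0.13, while both passed on CFA6D under both. The list's median difference was 0.13 on CFA3D and 0.17 on CFA6D.

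Of 21 genes of receptor signalling, from Gnas to the arrestins, 1 passed on CFA3D and 5 on CFA6D, all higher and none called, beside the same 3.65% and 8.22%, so the CFA3D count was near that of all genes. The catalytic subunit of protein kinase A, Prkaca, was at 42.2, 39.5 and 44.0 FPKM in saline, 46.8, 50.3 and 53.5 on CFA3D and 61.0, 53.0 and 58.6 on CFA6D, a log2 difference of 0.26 ± 0.08 (adjusted p = 0.997) and 0.46 ± 0.08 (adjusted p = 0.106). Prkaca on CFA3D did not pass under quantile normalization, at 0.17, or median centring, at 0.19. The G protein subunit Gnaq differed by 0.21 ± 0.10, which did not pass, and by 0.44 ± 0.10, which did (adjusted p = 0.997 and 0.162). The list's median difference was 0.09 and 0.17. None of the 4 genes of peptide breakdown passed on either day. Their log2 differences on CFA3D and CFA6D were -0.15 and 0.12 for Ece1, 0.11 and 0.05 for Ece2, 0.13 and -0.04 for Ide, and -0.05 and -0.24 for Mme (neprilysin).

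Of 13 genes of peptidergic neurons that go with CGRP, such as Tac1 (substance P) and Trpv1, 2 passed on each day, all higher and none called, beside 3.65% and 8.22% of all gene sums. The sodium channel Scn10a passed on CFA3D, at 0.39 ± 0.14, and stood at 0.29 ± 0.14 on CFA6D (adjusted p = 0.997 and 0.508). The peptide gene Adcyap1 stood at 0.27 ± 0.15 on CFA3D and passed on CFA6D, at 0.43 ± 0.15 (adjusted p = 0.997 and 0.318). Without the 2 libraries that stood apart, Scn10a on CFA3D did not pass, nor did it under median centring, at 0.32. Without saline replicate 2, Adcyap1 on CFA6D was at 0.34 and did not pass, and Scn10a on CFA6D was at 0.38 and did. Sensory neuron markers, which share Snap25 with the release list and Scn9a with the peptidergic list, moved in the same direction. Of the 12, 1 passed on CFA3D and 6 on CFA6D, all higher, beside 3.65% and 8.22% of all gene sums. Their median difference was 0.18 and 0.26, and their sum was 2485 to 3048 FPKM in saline, 2832 to 3423 on CFA3D and 3047 to 3771 on CFA6D. Markers of other cells went in both directions on CFA6D. Of 6 Schwann cell genes 3 were above saline in mean log2 level (median difference 0.07). Among the 6, 1 was called, higher, beside the 0.584% of all gene sums called. Of 6 smooth muscle and pericyte genes 5 were above saline (median 0.17), with none passing. All 6 satellite glia genes were below saline in mean log2 level (median difference -0.20), with none passing, and 6 of the 7 macrophage genes likewise (median -0.35), with sums of 42.4 to 69.3 FPKM against 71.9 to 88.9 in saline. Of 5 fibroblast genes 2 passed, Dcn and Lum, both lower, beside the 2.85% of all gene sums that passed downwards, and the list's median was -0.12. Another 2 of the 5 were above saline, and the sums overlapped, at 299 to 508 FPKM against 397 to 495 in saline. All 6 skeletal muscle genes (median -2.08) and all 5 erythroid genes (median -0.46) were below saline on CFA6D, with none passing. On CFA3D these genes were also all below saline (medians -2.94 and -0.54). There 1 skeletal muscle gene was called, lower, beside the 0.342% of all gene sums called. Both sums overlapped those of saline on both days, and both were highest in saline replicate 2. The part of neuron or other cell content in the differences of Calca, Calcb and these lists was not tested. In the rest of the calcitonin family, adrenomedullin (Adm) was at 0.786 to 1.90 FPKM and differed by -0.22 ± 0.35 and -0.05 ± 0.35. Adm2, Iapp (amylin) and Calcr (the calcitonin receptor) were below the level tested, with means of 0.0065, 0.043 and 0.013 FPKM.

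Across the 9 libraries, the gene sums of log2(FPKM + 0.1) were compared in pattern as a description, since the libraries share their groups and depth. Calca and Calcb followed each other with a Pearson r of 0.85, Calcrl and Ramp2 with 0.61, and Calca and Ramp1 with -0.51. The 3 genes most like each member, among 13174 gene sums that averaged 1 FPKM or more, were Kidins220, Ctsl and Prkg1 for Calca (r = 0.96, 0.96 and 0.95), Rab14, Zdhhc2 and Psma6 for Calcb (0.97, 0.96 and 0.95) and Insyn1, Mex3b and Elfn1 for Crcp (0.97, 0.95 and 0.94). For the receptor genes they were Mtcp1, Derl1 and Thada for Calcrl (0.96, 0.96 and 0.95), Trim59, Sstr4 and Slc6a9 for Ramp1 (0.98, 0.97 and 0.97), Phlda3, Lamb2 and Mxd4 for Ramp2 (0.96, 0.95 and 0.95) and Saxo2, Usf2 and Slc41a3 for Ramp3 (0.97, 0.94 and 0.93). These genes were picked as the highest of 13174 correlations over only 9 libraries, and every member had genes with such high r. The values therefore do not show that the named genes are linked to the members.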

How the data were processed

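TG RNA was sequenced in 9 libraries. Per the labels a TruSeq kit was used, and per the study's methods ribosomal RNA was depleted, libraries were stranded, reads were trimmed with Trimmomatic and mapped to GRCm38, and CLC Genomics Workbench gave expression levels. The submitters' processing notes name Bowtie 0.12.2 and mm8 instead, so the aligner and build behind the files are not settled, and the tool that gave FPKM is not given in the sources used here. The authors deposited FPKM per transcript (relative to transcript length and mapped fragments). All per-sample columns of the mRNA table were used (0 left out). The lncRNA and other noncoding tables hold no transcript of these genes.

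Transcripts were joined by ID to GENCODE release 21 for mouse (583 of 102122 unmatched). Read pairs are approximate: they come from FPKM, length and the step at which low products of both pile up. FPKM intervals cover the spread between libraries only. Gene sums and transcripts averaging 0.1 FPKM or more entered limma as log2(FPKM + 0.1), version 3.58.1 (R 4.3.3), all 9 libraries in a single fit of 3 groups, no covariate, empirical Bayes with trend, and Benjamini-Hochberg adjustment over 16096 gene sums or 66562 transcripts. Fold changes on this scale understate the change of low genes. The p-values measure the spread between pools of 3 mice, which nothing in the labels ties to separate cages or days. Shares and ratios were compared by two-sided exact permutation tests (scipy 1.17.1, Python 3.11.15), and exons aligned with Biopython 1.88. On simulated data for CFA3D against saline, 200 gene sums moved by 2 (log2) were called rightly in 99% of cases (93% for transcripts). They reached an adjusted p under 0.05 in 93.5% (63.5%). Smaller moves were not simulated. These rates therefore do not give the power to find the smaller differences seen in the CGRP gene sums.

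Named were the 7 genes and their transcripts, from each pathway list the called genes or else the 2 with the smallest p on each day, and for likeness the 3 gene sums with the highest Pearson r. The members, lists and tests were chosen with earlier results of these data known. Alternatives were pseudocounts of 0.01 and 1, a mean of at least 1 FPKM, no filter, quantile normalization, median centring, only the groups compared, other call rules, the highest transcript in place of the gene sum, the replicate number as a block and leaving out each library. Length-weighted gene sums, Ramp2 sums and Ramp1 shares without ENSMUST00000128260, Calca ENSMUST00000205560 counted as CGRP and leaving out 2 libraries together were added after seeing the data. A fit of only the groups compared was not made for both CFA days, since these hold all libraries. Some values of a gene list are not reported here.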

Additional observations from a re-analysis of the deposited data

How the results depend on the processing

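Values are differences from saline (log2, or percentage points for shares). Settings named as added were chosen after the data were seen. No gene sum was called as reported, while dropping the fold minimum called 2 on CFA3D, 1 on CFA6D and 2 for both days, and the highest transcript in place of the gene sum called 1 each (Crcp). Of the 2 transcripts called as reported, an adjusted p under 0.05 left 0 in all 3 comparisons with saline, a pseudocount of 1 left 0 on CFA3D and 1 on CFA6D and for both days, quantile normalization left 1 on CFA3D, and median centring and the added removal of saline replicate 3 with CFA6D replicate 6 left 1 on CFA3D and for both days. The log2 ratio of Calcb to Calca was -0.069 with highest transcripts.

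With 1 library left out, the CGRP share ranged from -0.052 to 0.14 on CFA3D, -0.18 to 0.054 on CFA6D and -0.11 to 0.074 for both days, the Calcb to Calca ratio from -0.037 to 0.13 and the Ramp1 share from -3.94 to 0.067. Called gene sums ranged from 0 to 1 on CFA6D, and called transcripts from 1 to 3 on CFA3D and for both days and from 0 to 1 between the CFA days. On CFA3D ranges that crossed 0 were -0.30 to 0.047 for Calcrl, -0.15 to 0.25 for Ramp2, -0.19 to 0.28 for Ramp3, -0.57 to 0.019 for Adm, -0.33 to 0.018 for Ece1 and -0.33 to 0.13 for Mme. On CFA6D they were -0.057 to 0.23 for Calca, -1.05 to 0.0585 for Ramp1, -0.11 to 0.15 for Ramp2, -0.051 to 0.42 for Ramp3, -0.20 to 0.23 for Adm, -0.060 to 0.29 for Ece1, -0.099 to 0.0001 for Ide, -0.065 to 0.20 for Calca-201 and -0.040 to 0.14 for Calcb-201.

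Other signs turned as well. The largest such value was -0.65 for Ece2 on CFA3D with the highest transcript, against 0.11 as reported, and it did not pass. On CFA3D, the highest transcript also gave 0.069 for Calcrl, -0.041 for Ramp2 and 0.13 for Mme, the added length weighting -0.025 for Ramp2, -0.0011 for Ramp3 and 0.083 for Mme, quantile normalization -0.0465 for Ramp2, median centring -0.039 for Ramp2 and -0.062 for Ramp3, a pseudocount of 1 -0.0089 for Ramp3, and leaving out both libraries -0.065 for Ramp2, -0.19 for Ramp3 and 0.018 for Ece1. On CFA6D, quantile normalization gave -0.059 for Ramp2, -0.012 for Ece2 and -0.044 for Calcb-201, median centring -0.016 and the highest transcript -0.0091 for Ramp2, and leaving out both libraries -0.064 for Ramp3. The causes were not tested.

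Replicate numbers shared by saline and CFA3D did not pair the libraries (correlations of their deviations 0.06, -0.129 and 0.042). With the replicate block on CFA3D, 0 gene sums and 2 transcripts were called the exact p of the CGRP share was 1, and neither Syt1 nor Vamp2 passed unadjusted. CFA6D shares no number with the other groups.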
